A study of Mus musculus with 4 samples.

Results

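The keratin genes of tumor and skin were taken as all genes of the count tables whose symbol is Krt followed by digits, which gave 49 of 32285 genes. All 49 have a position on GRCm38, 25 on chromosome 11 and 24 on chromosome 15. They were measured by Visium, an assay that captures tissue RNA on a grid of barcoded spots, in 4 fresh frozen MC38 sections, each cut from its own tumor. MC38 is a colon carcinoma line of C57BL/6 origin, and its cells had been injected under the skin of female F1 hosts aged 8 to 12 weeks. There were 2 CC075F1 hosts (C57BL/6J x CC075/UncJ), classed by the study as responders to anti-PD-1, and 2 CC080F1 hosts (C57BL/6J x CC080/TauUncJ), classed as non-responders. All 4 hosts had been given 200 µg of an isotype control antibody 1 time, when tumors measured 75 to 110 mm3, and were sampled 48 hours afterwards. Every tumor therefore came from the same transplanted line, and the strain names refer to the host alone.

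Keratins are the intermediate filament proteins of epithelial cells. A filament forms from a type I chain, most of which are encoded on mouse chromosome 11, and a type II chain, encoded on chromosome 15. Krt18 is the type I gene that lies beside its type II partner Krt8 on chromosome 15. Simple epithelia such as the colon express Krt8 with Krt18, Krt19 and Krt20, whereas the epidermis makes Krt5 with Krt14 in its basal layer and Krt1 with Krt10 above it. Krt16 and Krt17 are induced in activated epidermis, and further members build the hair root sheaths and the hair shaft.

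Upstream sequence is shown for Krt10, the keratin with the most counts, and for Krt8 and Krt18, the neighbouring pair whose counts shared spots. The RefSeq promoter table of GRCm38.p6 held windows for 35 of the 49 keratins, from 250 bases before to 50 after the annotated start. Only bases before the earliest annotated start are printed, 5′ to 3′ on the strand of the gene. Capitals mark matches on either strand to the letters TATAAA of the TATA box, CCAAT of the CAAT box, TGANTCA of the AP-1 site or GGGCGG of the GC box without overlap. Krt10 (chr11:99389365-99389614, minus strand) held a TATA box match from base -26 to -21 and a CAAT box match on the opposite strand from -141 to -137 relative to the start. No match fell in the printed bases of Krt8 (chr15:102004483-102004592, minus strand) or Krt18 (chr15:102027966-102028179, plus strand). Of the 250 bases before the RefSeq start, 140 were left out for Krt8 and 36 for Krt18. The full Krt8 window held TATA box matches from -3 to 2 and from -1 to 4, in bases not printed. Over 32851 windows of 300 bases, 13.6% held the TATA box letters, 37.4% the CAAT box, 7.81% the AP-1 letters and 35.7% the GC box. These shares are of full windows, which are longer than the printed stretches.
Krt10: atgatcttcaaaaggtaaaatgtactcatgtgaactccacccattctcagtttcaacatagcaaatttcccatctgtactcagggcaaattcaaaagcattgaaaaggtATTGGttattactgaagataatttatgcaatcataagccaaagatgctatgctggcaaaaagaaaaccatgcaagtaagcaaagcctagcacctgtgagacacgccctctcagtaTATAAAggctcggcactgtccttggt
Krt8: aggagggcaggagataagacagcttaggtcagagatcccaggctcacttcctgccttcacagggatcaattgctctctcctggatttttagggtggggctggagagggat
Krt18: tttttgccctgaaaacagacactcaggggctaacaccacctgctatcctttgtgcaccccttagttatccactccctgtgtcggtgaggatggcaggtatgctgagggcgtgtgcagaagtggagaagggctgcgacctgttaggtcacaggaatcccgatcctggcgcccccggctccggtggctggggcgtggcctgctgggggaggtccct

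Section totals ran from 82594649 to 146460975 UMIs (unique molecular identifiers, each marking 1 captured molecule) over 2710 to 3276 spots, and CC075F1 replicate 2 was the deepest. That section also stood apart in skeletal muscle markers, whose 10 genes summed to 187 CPM (the UMI count scaled by the section total) against 8.67 to 26.9 CPM in the others. Levels below are in CPM with exact 95% Poisson intervals where given, and these cover counting error only. Each UMI is 1 molecule read near its 3′ end, so levels of different genes were compared without a length correction. A spot covers many cells, so fewer cells of a type and less RNA per cell cannot be told apart.

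Keratin expression was low and rested on 1 gene. Of the 49 keratins, 15 had 20 or more UMIs over the 4 sections, 19 had 1 to 19, and 15 had none. Together they gave 13990 UMIs, of which Krt10 held 83.8%. The 6 simple epithelial keratins summed to 0.932 and 1.44 CPM in CC075F1 replicates 1 and 2 and to 0.427 and 1.14 CPM in CC080F1 replicates 1 and 2. The 32 keratins of skin and hair summed to 30.3, 33.7, 28.9 and 29.0 CPM in the same order. The skin total was thus 23.4 to 67.6 times the simple total in each section, and 2.81 to 6.10 times without Krt10. Vimentin (Vim), the intermediate filament of mesenchymal cells, reached 1874 to 3128 CPM in the same sections.

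**Figure D1:**
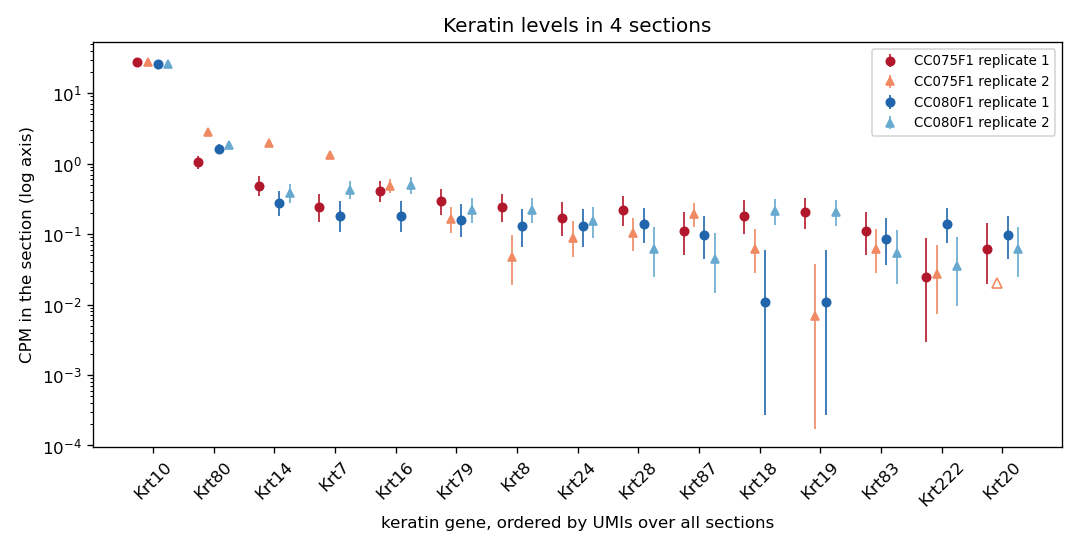
Level of the 15 keratins with 20 or more UMIs in each of the 4 sections, as CPM on a log axis with exact 95% Poisson intervals. An open symbol marks a section with 0 UMIs, drawn at the level of 3 UMIs. Krt10 stands at 25.8 to 27.9 CPM and every other keratin at 2.77 CPM or less.

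Many defining genes of skin were at or near 0, while other keratinocyte genes were counted in every section. The word skin therefore describes where these keratins are known from, and whether the sections hold skin was not tested. Krt5 had 4 UMIs in all, 1 in each section. Krt1 had 3 and Krt77, a type II keratin of the epidermis and sweat ducts, had 2. Krt2 of the upper epidermis and Krt15 of basal and hair bulge cells had none. Among 23 keratinocyte genes other than keratins, Ivl, Flg2, Dsg1a and Dsc3 had 0 UMIs, Lor had 2, Flg 4 and Krtdap 8. The list summed to 10.3 to 13.5 CPM. It was led by Cdsn with 1769 UMIs, Pkp1 with 907 and Sfn with 797, which encode corneodesmosin, a desmosomal plakophilin and a 14-3-3 protein. Sprr1a with 623 UMIs, Sbsn with 426 and Lgals7 with 242 came next. The sum hid opposite changes of its leading genes. Cdsn stood at 1.36, 5.33, 1.20 and 6.79 CPM and Pkp1 at 5.51, 0.526, 3.36 and 0.541 CPM, in the order of sections used above. A spot with 10 or more UMIs of this list occurred once in CC075F1 replicate 2 and 2 times in CC080F1 replicate 2, and in neither of the other sections. The 57 keratin-associated protein genes of the hair shaft gave 5 UMIs in all, and Krt6a, Krt6b, Krt33a and Krt33b, whose symbols end in a letter, gave 3.

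Other epithelial lists differed in level. The 19 genes of epithelial adhesion and identity summed to 35.7 and 12.6 CPM in CC075F1 and to 25.1 and 15.8 CPM in CC080F1. Jup (6540 UMIs), Pkp3 (1365) and Cdh1 (478) led this list, while Dsg2 had 0 UMIs, Dsp 5, and the intestinal genes Cdx2 and Vil1 had 3 and 30. The hair follicle list of 6 genes summed to 8.88 to 11.4 CPM and was led by S100a3 (2543 UMIs), Hoxc13 (1511) and Padi3 (205), with Dsg4 at 0. The sebaceous list of 6 genes summed to 0.569 to 0.778 CPM, with Awat2 at 279 UMIs, Scd3 at 23, Mc5r at 7 and Awat1 at 0. The mammary list of 8 genes summed to 0.669 to 1.296 CPM, led by Csn3 (173 UMIs), Lalba (98) and Wfdc18 (79), with Wap at 0.

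Among the simple epithelial keratins, Krt7 of ducts and glands was the most abundant. Krt7 stood at 0.242 and 1.32 CPM in CC075F1 and at 0.182 and 0.426 CPM in CC080F1. Its highest level was thus in CC075F1 replicate 2, where 170 spots held it, against 17 to 47 spots elsewhere, and the strains overlapped. Without Krt7 the simple keratins summed to 0.690, 0.116, 0.246 and 0.719 CPM, and that section was the lowest.

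Krt8, the type II chain of simple epithelia, gave 20 and 7 UMIs in the CC075F1 sections, followed by 12 and 25 in those of CC080F1. Krt18, its type I partner, gave 15, 9, 1 and 24 UMIs in the same order. Krt19, a small type I chain of ducts and glands, gave 17, 1, 1 and 23 UMIs. For all 3 genes, CC075F1 replicate 1 and CC080F1 replicate 2 were the high sections and the other section of each strain was low, so the strains overlapped. In CPM they reached at most 0.242 for Krt8, 0.213 for Krt18 and 0.206 for Krt19. Krt20, a keratin of the intestinal lining, gave 5, 0, 9 and 7 UMIs, and a limit of 3 UMIs was taken for the 0 of CC075F1 replicate 2, or 0.0205 CPM. Krt23 had 2 UMIs in 1 section. Processed copies of Krt8 and Krt18 exist in the genome, and how reads shared with them were counted was not examined.

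Krt8, Krt18 and Krt19 were gathered in a few spots. Spots with 3 or more UMIs of the 3 genes together, a limit chosen after their counts were seen, numbered 2 in CC075F1 replicate 1 and 5 in CC080F1 replicate 2, and 0 in the other sections. The 2 spots held 22 of 52 UMIs (42.3%) of that section, and 18 of these lay in 1 spot, with 7 of Krt8, 3 of Krt18 and 8 of Krt19. The 5 spots held 40 of 72 UMIs (55.6%), and 3 of them touched each other. Outside these spots, 28 spots of each of these sections and 16 and 13 spots of CC075F1 replicate 2 and CC080F1 replicate 1 held 1 or 2 UMIs. Krt8 and Krt18 shared 2, 1, 0 and 4 spots, in the order of sections used above. If they were placed independently, under 0.1 shared spots would be expected in each section.

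**Figure D2:**
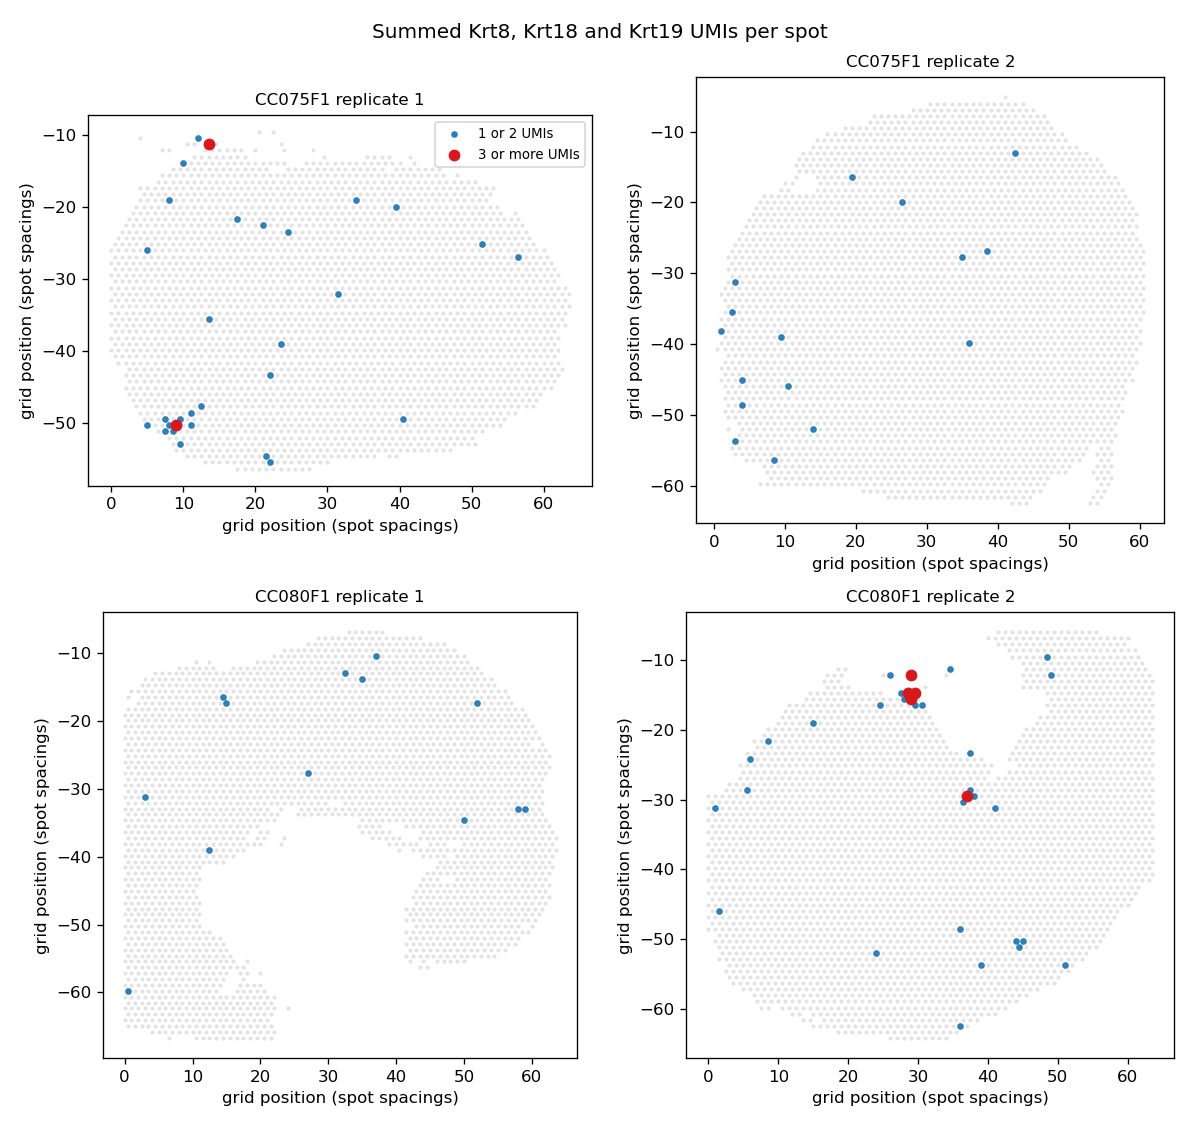
Summed Krt8, Krt18 and Krt19 UMIs in each spot of the 4 sections, on the slide grid with 1 unit as the spacing of neighbouring spots. Grey spots have none, blue spots 1 or 2 and red spots 3 or more. The 2 red spots of CC075F1 replicate 1 and 4 of the 5 of CC080F1 replicate 2 lie at the tissue edge.

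Some other epithelial genes were dense in the same spots, and so were some genes of other cell types. In the 5 spots of CC080F1 replicate 2 the mammary list summed to 17 UMIs, or 372 CPM, against 1.15 CPM in all other spots of the section. Its UMIs there were 8 of Csn3, 4 of Prlr, 3 of Ltf, and 1 each of Elf5 and Wfdc18, while Wap and Lalba had 0. Epcam, an adhesion molecule of epithelia, had 4 UMIs in them, or 87.5 against 0.346 CPM elsewhere. The whole list of 19 adhesion and identity genes summed to 306 against 15.7 CPM, with Pkp3 at 0 UMIs in these spots. The adipocyte list summed to 744 against 6.96 CPM, and the keratinocyte list, with 3 UMIs, to 65.7 against 13.4 CPM. In the 2 spots of CC075F1 replicate 1, Epcam had 3 UMIs (69.9 against 0.194 CPM), the mammary list 2 UMIs and the adipocyte list 0. The adhesion and identity list summed to 163 against 35.7 CPM there, and its leading genes Jup, Pkp3 and Cdh1 had 0 UMIs. Since the spots were chosen by their keratin counts and hold 42890 and 45692 UMIs per section, these are descriptions of few molecules. Vim reached 2670 CPM in the 5 spots and 2302 CPM in the rest of that section. The fibroblast gene Col1a1 stood at 1007 against 111 CPM in the 5 spots and at 350 against 44.9 CPM in the 2 spots. The whole fibroblast list stood at 3152 against 2413 CPM and at 1562 against 1794 CPM in the same order.

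Krt10 was spread through the tumors at a nearly constant level in CPM. Its level was 27.6 CPM (95% interval 26.5 to 28.8) and 27.9 CPM (27.0 to 28.8) in CC075F1 and 26.3 CPM (25.3 to 27.4) and 25.8 CPM (24.9 to 26.7) in CC080F1. The coefficient of variation over the 4 sections was 3.79%, against 25.9% to 106% for the other named keratins. Counting error adds more to the latter, since Krt24, at 25.9%, had 12 to 17 UMIs per section against 2281 to 4084 for Krt10. The CC075F1 sections lay above those of CC080F1 by a small margin in CPM, with means of 27.8 ± 0.189 and 26.0 ± 0.361 CPM (SD, n = 2 each). With library sizes scaled by edgeR (TMM), the summed skin keratins, mostly Krt10, stood at 28.1 and 45.3 CPM in CC075F1. In CC080F1 they stood at 24.8 and 27.2 CPM under that scaling. The near constancy is therefore a statement about unscaled CPM. Krt10 was found in 53.9%, 66.7%, 57.1% and 55.4% of spots, the highest share being in the deepest section. Its spatial clustering was weak, with a Moran's I over neighbouring spots of 0.03 to 0.09, where 0 is no clustering and 1 is full clustering.

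Krt10 was found without its partner chain. Krt1 had at most 1 UMI per section, each in a spot that also held Krt10. In each section with Krt1, 0.554 to 0.667 shared spots would be expected if the 2 genes were placed independently. These single UMIs therefore say nothing of shared placement. The predicted antisense gene Gm11940, which overlaps Krt10, had 4, 6, 13 and 9 UMIs, so it held far fewer molecules than the 2281 to 4084 of Krt10. Spots with 5 or more UMIs of the 7 epidermal keratins numbered 11, 78, 13 and 31, and 89.0% to 100% of their epidermal UMIs were Krt10. These spots had a median depth of 41210 to 69276 UMIs against 31070 to 41260 in all other spots. They formed no patch of more than 4 touching spots. The keratinocyte list stood at 11.5 to 26.2 CPM in them and at 10.3 to 13.5 CPM elsewhere.

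**Figure D3:**
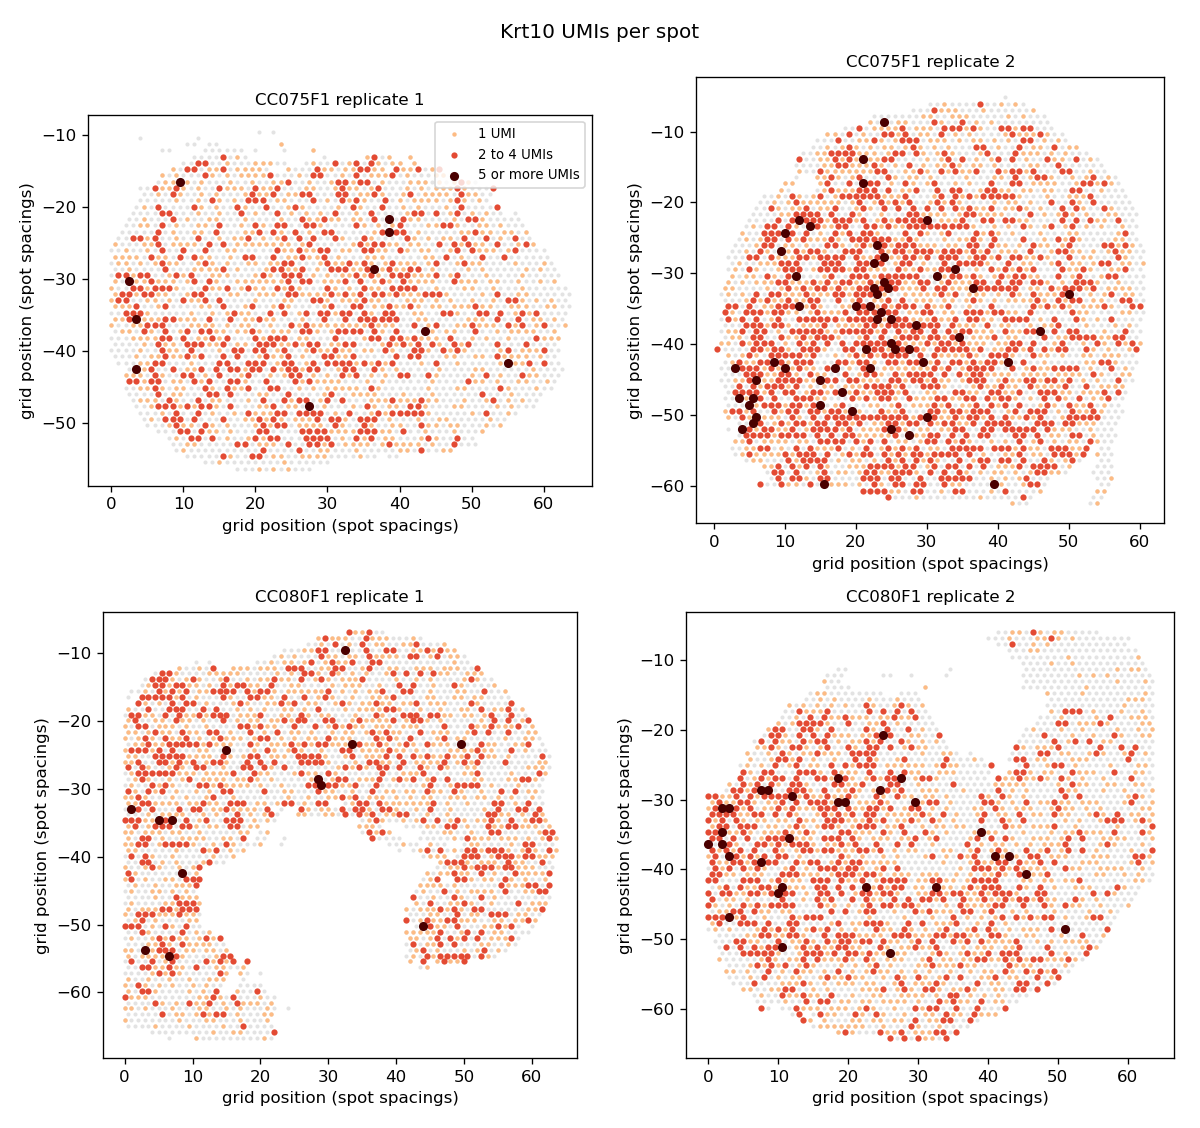
Krt10 UMIs in each spot of the 4 sections, on the slide grid with 1 unit as the spacing of neighbouring spots. Grey spots have none. Krt10 was found in 53.9% to 66.7% of spots, and spots with 5 or more UMIs lie scattered over the sections without forming a layer.

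Krt14, the basal epidermal type I chain, varied far more between sections than Krt10. Its level was 0.484 and 1.96 CPM in CC075F1 and 0.278 and 0.382 CPM in CC080F1, so the strains did not overlap, but CC075F1 replicate 2 held 287 of its 396 UMIs. Krt14 lay in 241 spots there and in 23 to 42 spots elsewhere. No spot of any section held both Krt14 and its partner Krt5. With 1 Krt5 UMI per section, only 0.00825 to 0.0736 shared spots would be expected under independent placement. The absence of shared spots therefore says nothing of their placement.

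Krt16 of activated epidermis stood at 0.412, 0.485, 0.182 and 0.497 CPM. In CC075F1 replicate 2, 13 of its 71 UMIs came from 1 spot, 6 steps from the tissue edge, which also held 3 UMIs of Krt14, 1 of Krt10 and 0 of its usual partners Krt6a and Krt6b. In the other sections no spot had more than 3 Krt16 UMIs. Krt17, which accompanies Krt16 in stressed epidermis, had 19 UMIs in all.

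Krt80, a type II keratin found broadly in differentiating epithelia and grouped here with the sebaceous and infundibular keratins, was the next most abundant keratin after Krt10. Its level was 1.05 and 2.77 CPM in CC075F1 and 1.59 and 1.85 CPM in CC080F1, with CC075F1 replicates at both ends of the range. The predicted antisense gene Gm35853 overlaps it and had 184 UMIs in all, against 850 for Krt80. Krt79, a keratin of the hair follicle opening and sebaceous duct, stood at 0.291, 0.164, 0.160 and 0.222 CPM, and no spot held more than 1 UMI of it.

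The root sheath and hair shaft keratins had the fewest UMIs of the groups. Of the 8 root sheath keratins 5 had 0 UMIs, and Krt28 held 53 of the 55 UMIs of the group, at 0.218, 0.102, 0.139 and 0.0621 CPM. Of the 13 hair shaft keratins 8 had 0 UMIs. Krt87 stood at 0.109, 0.191, 0.0962 and 0.0444 CPM and Krt83 at 0.109, 0.0614, 0.0855 and 0.0532 CPM. The hair keratins of chromosome 15 are close in sequence, and so are Krt14, Krt16, Krt17 and Krt42, so low counts of these genes are uncertain as to the exact member. Among 11 further keratins, Krt24 stood at 0.170, 0.0888, 0.128 and 0.151 CPM and Krt222 at 0.0242, 0.0273, 0.139 and 0.0355 CPM, and the other 9, which include the mucosal Krt4 and Krt13 and the corneal Krt12, had 1 to 18 UMIs in all.

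Placement by distance from the tissue edge was compared within sections. The edge was taken as spots within 3 grid steps of a position off tissue, which held 568 to 880 spots per section. Edge spots were shallower than interior spots, with medians of 18032 to 30120 against 33592 to 46146 UMIs. In the edgeR fit with the section as a block, 166 of 15089 genes were called (1.10%), and 151 of these were higher at the edge (1.00%). Of the 10 keratins that passed the count filter, Krt18 was called, higher at the edge, 8 had a positive and 2 a negative log2 fold change, and the median was 0.66 against -0.02 over all genes tested. The remaining 39 keratins were too low to be tested.

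Krt18 had 13 of 15 UMIs at the edge in CC075F1 replicate 1, 6 of 9 in CC075F1 replicate 2, 0 of 1 in CC080F1 replicate 1 and 17 of 24 in CC080F1 replicate 2. Its log2 fold change was 3.79 ± 0.65 (SE; adjusted p = 0.0412, edgeR quasi-likelihood test). The call was lost without CC075F1 replicate 1 (3.22, adjusted p = 0.239) and without CC080F1 replicate 2 (3.82, adjusted p = 0.291), fits in which the number of all genes called went from 166 to 20 and to 4. The 7 spots with 3 or more UMIs of the 3 genes, 6 of them at the edge, held 23 of the 49 Krt18 UMIs. Krt19 had 11 of 17 and 20 of 23 UMIs at the edge in CC075F1 replicate 1 and CC080F1 replicate 2, and 0 of 1 in each other section. Its log2 fold change was 3.64 ± 0.81 (adjusted p = 0.0750), and that of Krt8 was 1.85 ± 0.66 (adjusted p = 0.203). Neither passed the threshold. Several lists of other cell types had positive medians in the same fit. The median log2 fold change was 2.46 over 6 adipocyte genes, 2.65 over 10 skeletal muscle genes, 0.49 over 3 endothelial genes, 0.81 over 7 genes of epithelial adhesion and identity, 0.76 over 3 mammary genes and 0.29 over 8 keratinocyte genes, and none of these genes was called. Other lists did not lean to the edge, with medians of -0.10 over 4 macrophage genes and -0.19 over 3 hair follicle genes. The 1 sebaceous gene tested stood at -0.57. The median over 5 fibroblast genes was 0.05. Of these, Col1a1, a collagen chain, was called at 2.11 ± 0.31 (adjusted p = 0.0288). Lum stood at 1.35, Col3a1 at 0.05, Dcn at -0.10 and Pdgfra at -0.10, none of them called. Epcam stood at 1.58 ± 0.41 (adjusted p = 0.109). The part of these cell types in the keratin result was not tested.

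Krt80 was denser at the edge in every section without being called. Its edge level was 1.69 against 0.953 CPM in the interior of CC075F1 replicate 1, 4.62 against 2.49 CPM in CC075F1 replicate 2, 2.02 against 1.42 CPM in CC080F1 replicate 1 and 3.07 against 1.62 CPM in CC080F1 replicate 2. The log2 fold change was 0.71 ± 0.15 (adjusted p = 0.0698, edgeR). By DESeq2, which called 4.18% of genes, it was 0.71 with an adjusted p of 0.0366. In CC075F1 replicate 2 the level was 7.41 CPM (95% interval 5.27 to 10.1) in the outermost spots and 2.36 CPM (2.03 to 2.74) at 11 or more steps.

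Krt10 showed the opposite tendency. Its edge level was 26.4, 24.97, 26.9 and 22.2 CPM and its interior level 27.8, 28.3, 26.0 and 26.5 CPM, so it was lower at the edge in 3 of 4 sections. The log2 fold change was -0.18 ± 0.08 (adjusted p = 0.254, edgeR), and it did not pass the threshold. Krt7 (0.66, adjusted p = 0.387), Krt79 (0.67, adjusted p = 0.415), Krt14 (0.12, adjusted p = 0.863), Krt28 (0.16, adjusted p = 0.917) and Krt16 (-0.10, adjusted p = 0.941) did not pass either.

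**Figure D4:**
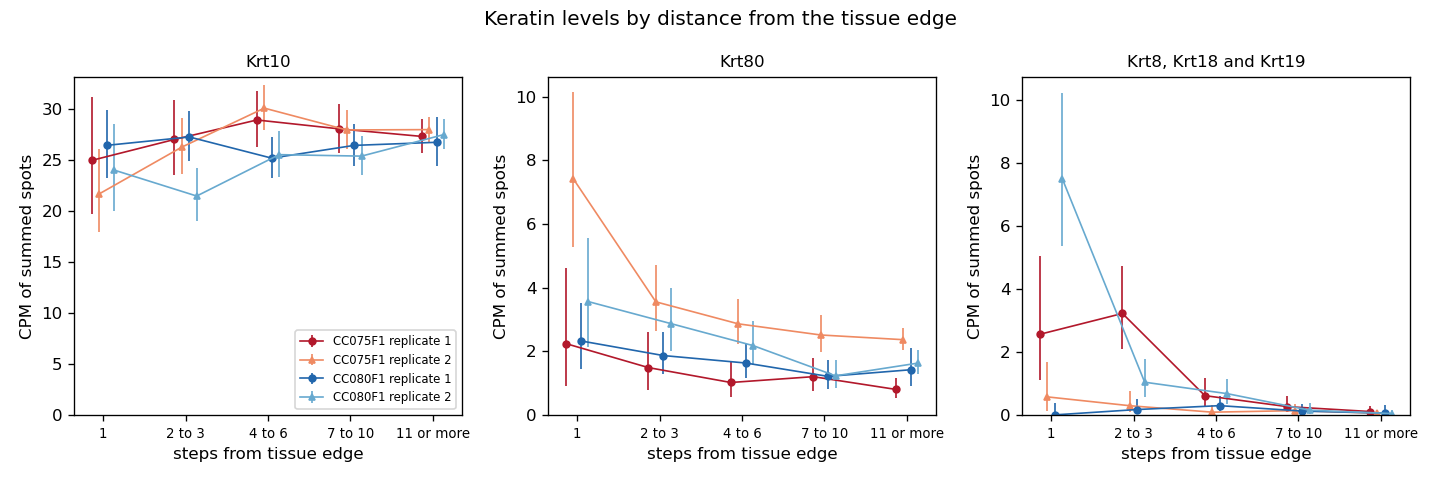
Level by distance from the tissue edge in each section, as CPM of the summed spots of each distance class with exact 95% Poisson intervals, for Krt10, Krt80 and the sum of Krt8, Krt18 and Krt19. Krt10 stays at 21.4 CPM or more in every class, Krt80 is highest in the outermost class of every section, and the sum of the 3 simple keratins reaches 7.49 CPM in the outermost class of CC080F1 replicate 2.

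As sums, the simple keratins were denser at the edge by a log2 ratio of 3.09 and 0.31 in CC075F1 and by -0.30 and 2.61 in CC080F1, a wider spread within each strain than between them (exact permutation p = 0.667, two-sided). The skin keratins gave 0.03, -0.07, 0.10 and -0.16 (exact permutation p = 1). Without Krt10, an alternative added after the data were seen, the skin keratins gave 0.91, 0.38, 0.61 and 0.44, all toward the edge, and Krt80 holds 850 of the 1683 UMIs of that sum. In the test of whether the edge difference itself differed between strains, 0.106% of 15089 genes were called, and none of the 10 keratins tested (none at an unadjusted p under 0.05, edgeR; none by DESeq2).

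Strains were compared on UMIs summed over each section, to ask whether tumors in hosts of the responder and non-responder class differed in keratins before treatment. The edgeR fit called 14 of 15572 genes (0.0899%). Of the 49 keratins 12 were tested and 0 called, with 1 at an unadjusted p under 0.05, and DESeq2 also called 0. Of the 12, 10 had a positive log2 fold change (CC075F1 over CC080F1) and 2 a negative one, with a median of 0.54 against -0.02 over all genes tested. Without the scaling factors of edgeR (TMM) the median of all genes moved to -0.31, so the sign of a small change depends on the scaling.

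Krt14 had the smallest p, with a log2 fold change of 2.37 ± 0.80 (adjusted p = 0.729, edgeR), followed by Krt87 (1.53 ± 0.72, adjusted p = 0.830) and Krt7 (1.85 ± 0.93, adjusted p = 0.830). All 3 are highest in CC075F1 replicate 2, and without it the log2 fold change was 0.59 for Krt14 and -0.31 for Krt7. With no filter on low counts, Krt14 and Krt7 were called among 480 of 22507 genes (2.13%). Krt10 gave 0.43 ± 0.23 (adjusted p = 0.830), which was 0.09 with library size alone. Krt80 gave 0.60 ± 0.60 (adjusted p = 0.845) and Krt16 0.73 ± 0.62 (adjusted p = 0.832), the latter 0.15 without CC080F1 replicate 1 and 1.73 without CC080F1 replicate 2. Krt8 (-0.17 ± 0.73), Krt18 (0.22 ± 1.05) and Krt19 (-0.08 ± 1.33) had errors larger than their changes. Of the 15 named keratins, 5 did not overlap between strains, a share near that of all 16651 genes with 20 or more UMIs (37.0%). Krt10, Krt14 and Krt87 were higher in both CC075F1 sections, and Krt20 and Krt222 in both CC080F1 sections, with Krt20 separated by 0.0605 against 0.0621 CPM. Krt20 and Krt222 did not pass the count filter and were not tested.

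The summed simple keratins overlapped between strains and the summed skin keratins did not. The simple keratins averaged 1.19 CPM in CC075F1 and 0.786 CPM in CC080F1 (ratio 1.51, exact permutation p = 0.667), and without Krt7 the ratio was 0.836. The skin keratins averaged 32.0 and 28.9 CPM (ratio 1.11, exact permutation p = 0.333, the smallest that 2 against 2 sections allow). A simple keratin was found in 1.81% (exact 95% interval 1.34% to 2.38%) and 5.62% (4.85% to 6.46%) of CC075F1 spots and in 1.40% (0.997% to 1.91%) and 2.68% (2.14% to 3.30%) of CC080F1 spots, a ratio of 1.82 (exact permutation p = 0.667). A skin keratin was found in 56.8% and 72.7% of CC075F1 spots and in 60.6% and 59.4% of CC080F1 spots (ratio 1.08, exact permutation p = 1). Shares were also taken with spots thinned to 10000 UMIs, which left out 161, 102, 53 and 205 shallower spots. Spots dense in Krt8, Krt18 and Krt19, of 2447, 7958, 6163 and 5429 UMIs, were among those left out. In the thinned spots the simple shares were 0.863%, 1.64%, 0.475% and 0.909%, and the skin shares 26.4%, 28.7%, 24.3% and 24.7%.

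Krt10, Krt80 and the sums of the simple and of the epidermal keratins had no close match over spots among abundant genes. Among 9399 genes with 500 or more UMIs in each section, the highest mean Pearson correlation over the 4 sections with Krt10 was 0.146, for Zcrb1 and Hmgn2, followed by Erh, Uqcrb and Hspb11. With Krt80 it was 0.0453, for Mov10, with the summed simple keratins, of which Krt7 held 279 of 457 UMIs, 0.0492, for Supt16, and with the summed epidermal keratins 0.148, for Hmgn2. Krt8 and Krt18, which were below the count needed for this comparison, correlated with each other at 0.31 in CC075F1 replicate 1 and 0.42 in CC080F1 replicate 2, over few shared spots. The spots of a section share its library and differ in depth, and correlations as weak as those with other genes give no pattern to describe in sparse counts.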

How the data were processed

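UMI counts per gene and spot were measured by 10x Genomics Visium in 4 sections, 2 per strain. The authors aligned reads and counted UMIs with Space Ranger 1.3.1 (per the file headers) on mm10. The deposited matrices hold raw counts of spots under tissue, and the position lists give the grid. Groups followed the sample labels. Here, counts were summed per section, or per section and zone (edge within 3 steps of a position off tissue), and fitted with edgeR 4.0.16 (R 4.3.3) by quasi-likelihood on genes passing filterByExpr, with TMM factors and Benjamini-Hochberg adjustment at 0.05. DESeq2 1.42.0 was an alternative. P-values of the strain fit measure the spread between 2 tumors per strain. In the edge and strain by edge fits, which have the section as a block, they measure how the edge difference varies between sections. Section values were compared by two-sided exact permutation tests. The fits were tested on simulated counts. Intervals are exact binomial or Poisson, at 95%. Gene positions came from GENCODE vM21. Keratins with 20 or more UMIs were named with every section's value, as were the 3 leading genes of each epithelial marker list and the most alike genes. The keratins, lists and tests were chosen with earlier results of these data known. No empty-spot or doublet filter was applied, since spots hold many cells.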

Additional observations from a re-analysis of the deposited data

How the results depend on the processing

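Krt18 was the only keratin called by edge, and this count of 1 was 3 with no filter on low counts and 2 by DESeq2. The count was 0 with an edge of 5 steps and in spots of at least 10000 UMIs. That depth limit also removed spots dense in Krt8, Krt18 and Krt19, of 2447, 7958, 6163 and 5429 UMIs. The count was also 0 without the spots of 3 or more Krt8, Krt18 and Krt19 UMIs. That alternative was chosen after seeing the data and by construction removes 23 of 49 Krt18 UMIs. Leaving out 1 section at a time gave 0 to 3, with 0 without CC075F1 replicate 1 and without CC080F1 replicate 2. The log2 fold change of Krt18 stayed positive in every fit, from 2.74 to 4.03, and that of Krt80 from 0.49 to 0.79. Between strains 0 keratins were called except with no filter on low counts, where 2 were. In the fit with the replicate block 0 keratins were called, among 287 genes. Same-numbered sections deviated together (r = 0.38 over 14203 genes). The labels give them no shared origin, and with 2 pairs a shared factor was not tested. The simple keratin level ratio was 0.836 without Krt7, and the simple edge ratio, CC075F1 minus CC080F1 on the log2 scale, went from 0.54 to -0.12 with an edge of 5 steps. With 1 section left out at a time, the simple keratin level ratio ran from 1.04 to 2.78, the simple edge difference from -0.91 to 1.99, the skin edge difference from -0.12 to 0.15, the ratio of spot shares from 0.887 to 2.76 for simple and from 0.946 to 1.21 for skin keratins. In the same way the strain log2 fold changes ran from -0.31 to 2.68 for Krt7, -0.66 to 1.26 for Krt80, 0.15 to 1.73 for Krt16, 0.59 to 3.14 for Krt14, 0.71 to 2.09 for Krt87, -1.2996 to 0.49 for Krt8, -0.68 to 3.61 for Krt18 and -3.33 to 3.26 for Krt19, and the edge change of Krt14 from -0.072 to 0.49. The edge change of Krt14 was -0.20 with an edge of 2 steps. The causes of these changes were not tested. Over all genes, the number called across these fits was 11 to 480 by strain (14 as reported), 4 to 1005 by edge (166) and 1 to 532 for strain by edge (16). At this depth, keratins with fewer than 20 UMIs did not pass the count filter. Neither did Krt20, Krt83 and Krt222 (21, 32 and 23 UMIs) in the main strain and edge fits, nor Krt24 and Krt87 in the main edge fit. Differences in keratins that did not pass were not detectable.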
